A study of Mus musculus with 53 samples.

Results

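The genes described here are the lysozyme gene Lyz1, the alpha-defensin genes Defa17 and Defa24, the angiogenin gene Ang4, the intelectin gene Itln1 and the regenerating-family gene Reg4. These 6 genes were chosen by symbol as products of Paneth cells and deep crypt secretory cells, and each matched 1 entry among the 55421 genes of the raw count table. Expression was measured by bulk RNA-seq in 53 libraries from mouse small intestine, proximal colon and primary tumours of both tissues, which fell into 11 groups. Every mouse carried VilCreER, a tamoxifen-inducible Cre recombinase driven by the villin promoter and therefore active in the intestinal epithelium, and every mouse received tamoxifen, the WT controls included.

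In the small intestine the groups were WT tissue (n = 3), tumours of VilCreER Apcfl/+ mice (n = 5), day-4 WT tissue (n = 6) and day-4 VilCreER Apcfl/fl tissue (n = 10), where the day counts from induction. In the proximal colon they were WT tissue (n = 3), tumours of VilCreER BrafV600E/+ Alk5fl/fl mice, called BA (n = 4), and 5 groups taken on day 30, namely WT (n = 4), BA (n = 5), BA given antibiotics (n = 5), A, which is VilCreER Alk5fl/fl (n = 4), and A given sulindac (n = 4). Alk5 encodes a TGFβ receptor. The antibiotics were ampicillin at 1 g/L, neomycin at 1 g/L, vancomycin at 500 mg/L and metronidazole at 1 g/L of drinking water, and sulindac, an anti-inflammatory drug, was given at 0.4 g/L for 14 days. Both treatments began on the day after tamoxifen, so the A mice on sulindac had returned to plain water before the tissue was taken. The labels gave the WT small intestine without a day and the Apcfl/+ tumours an inbred C57BL6/J background and all other groups a mixed C57BL/6J background. Alleles in the Apc, Alk5 and Braf genes could not be checked, because the gene-level counts do not separate the altered exons. Day-4 Apcfl/fl libraries, for example, held 34.2 to 174 counts of Apc per 1e+06 counts of the library (CPM) and their WT held 64.0 to 97.3 CPM.

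Paneth cells sit at the base of small intestinal crypts between the stem cells, and discharge granules of antimicrobial proteins into the crypt lumen. Lysozyme cleaves bacterial cell walls, alpha-defensins are small peptides that disrupt bacterial membranes, and the protease Mmp7 (matrilysin) cuts mouse pro-alpha-defensins into their active form. The normal mouse colon has few or no Paneth cells, and deep crypt secretory cells, which are marked by Reg4 and lie next to the stem cells, take a similar position there.

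The sequences of 2 pairs of near-identical genes are given first, because they set how far reads of 36 bases can be assigned to 1 gene. Defa17 (chr8:21655780-21656735, plus strand, GRCm38) and Defa24 (chr8:21734494-21735471, plus strand) are protein-coding genes of 1 defensin cluster. Their coding sequences, read from the annotated genome without the stop codon, are each 279 bases long. They differ at 12 positions, which are in capitals, and are 95.7% identical.
Defa17: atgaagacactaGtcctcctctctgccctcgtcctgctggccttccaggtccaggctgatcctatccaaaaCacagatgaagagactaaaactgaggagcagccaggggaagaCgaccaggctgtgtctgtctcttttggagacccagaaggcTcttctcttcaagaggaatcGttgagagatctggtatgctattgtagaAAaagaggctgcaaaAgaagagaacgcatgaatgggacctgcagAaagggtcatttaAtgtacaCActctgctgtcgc
Defa24: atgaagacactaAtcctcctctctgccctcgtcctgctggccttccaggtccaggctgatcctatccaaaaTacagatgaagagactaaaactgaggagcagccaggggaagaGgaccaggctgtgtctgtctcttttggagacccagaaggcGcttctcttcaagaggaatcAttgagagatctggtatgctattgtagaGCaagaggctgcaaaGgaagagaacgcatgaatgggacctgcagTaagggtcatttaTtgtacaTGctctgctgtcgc
The longest stretch without a difference was 58 bases, longer than a read. Of all 36-base words in the exons of Defa17, 93.1% also occurred in another gene, and Defa3 had a coding sequence identical to that of Defa17. For Defa24 the share was 48.2%, most of it in common with Defa30, whose coding sequence was 98.6% identical. Counts of single defensin genes therefore depend on how reads with several matches were assigned, which is not given in the sources used here, and the values of Defa17 and Defa24 are uncertain to that extent. The share was 28.5% for Lyz1 (all with Lyz2), 9.35% for Ang4, 2.74% for Itln1 and 0% for Reg4.

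Lyz1 (chr10:117287797-117292868, minus strand), the lysozyme of Paneth cells, lies beside Lyz2, the lysozyme of macrophages and other myeloid cells. Their coding sequences were 95.1% identical. The 250 bases before each transcription start are shown because the 2 genes differed in opposite directions between the tissues. They lie at chr10:117292869-117293118 for Lyz1 and at chr10:117282273-117282522 for Lyz2, both on the minus strand of GRCm38.p6 and taken from RefSeq. Capitals mark the letters GATAAG, read from the opposite strand as CTTATC, which occurred in the window of Lyz1 and not in that of Lyz2.
Lyz1: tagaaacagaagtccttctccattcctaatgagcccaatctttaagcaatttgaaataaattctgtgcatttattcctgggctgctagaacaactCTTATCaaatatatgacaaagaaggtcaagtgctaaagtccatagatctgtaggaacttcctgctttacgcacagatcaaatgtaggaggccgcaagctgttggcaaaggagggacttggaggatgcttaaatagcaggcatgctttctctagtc
Lyz2: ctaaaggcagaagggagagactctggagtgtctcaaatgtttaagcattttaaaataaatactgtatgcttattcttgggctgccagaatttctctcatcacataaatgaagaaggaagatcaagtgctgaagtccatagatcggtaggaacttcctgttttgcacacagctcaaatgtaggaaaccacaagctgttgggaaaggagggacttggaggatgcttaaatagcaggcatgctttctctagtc
The windows were 79.4% identical over 252 aligned columns. The letters GATAAG, searched on both strands, occurred in 6.55% of 32851 such windows in the RefSeq table, and among the members also in the window of Reg4, at 100 bases before its start. The letters CTTTGA (in 13.8% of windows), CAGCTG (in 13.0%) and TATAAA (in 12.4%) were in none of the windows of Lyz1, Ang4, Itln1 and Reg4. The table holds no window for Defa17 and Defa24. The other members lie at chr14:51763878-51773590 (Ang4, minus strand), chr1:171518122-171535294 (Itln1, minus strand) and chr3:98222156-98236748 (Reg4, plus strand), and all 6 are annotated as protein-coding.

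Library totals, the sum of counts over all genes, ranged from 516985 to 32824795 with a median of 18356939. The lowest belonged to day-4 Apcfl/fl library 1. Some libraries carried markers of another gut region. Apcfl/+ tumour 2 had 0.545 CPM of Gata4, a transcription factor of the proximal small intestine, against 72.9 to 88.0 CPM in the other Apcfl/+ tumours, and 283 CPM of the hindgut gene Hoxb13. BA tumour 2, labelled proximal colon, had 11.5 CPM of Gata4 and 159 CPM of Fabp1, the fatty acid-binding protein of small intestinal enterocytes, where BA tumour 3 had none of either. Fabp6, a bile acid-binding protein of the ileum, was at 482 and 88.8 CPM in A libraries 1 and 3 and at most 1.39 CPM in A libraries 2 and 4, and it was at 47.5 and 42.9 CPM in WT proximal colon libraries 1 and 3 against 0.654 CPM in library 2. Values without these libraries are given beside the results they move.

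In normal small intestine the members were among the abundant transcripts, together 0.727 to 0.814% of all counts in WT tissue. Levels of different genes are compared here as CPM per kilobase of exon. On that scale WT small intestine held 7271 ± 696 of Defa24 (SD, n = 3), 2247 ± 128 of Lyz1, 1116 ± 67.2 of Itln1, 267 ± 26.1 of Ang4, 266 ± 87.2 of Defa17 and 101 ± 25.7 of Reg4. Defa24 was thus the highest and Reg4 the lowest, while Ang4 and Defa17 differed by less than their SDs. In day-30 WT proximal colon the order was turned round. Reg4 stood at 1681 ± 546 CPM per kilobase (n = 4) and Ang4 at 583 ± 546, against 5.17 ± 5.25 for Itln1, 3.96 ± 0.732 for Lyz1 and 0.0602 ± 0.0698 for Defa24, and Defa17 had no read.

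**Figure D1:**
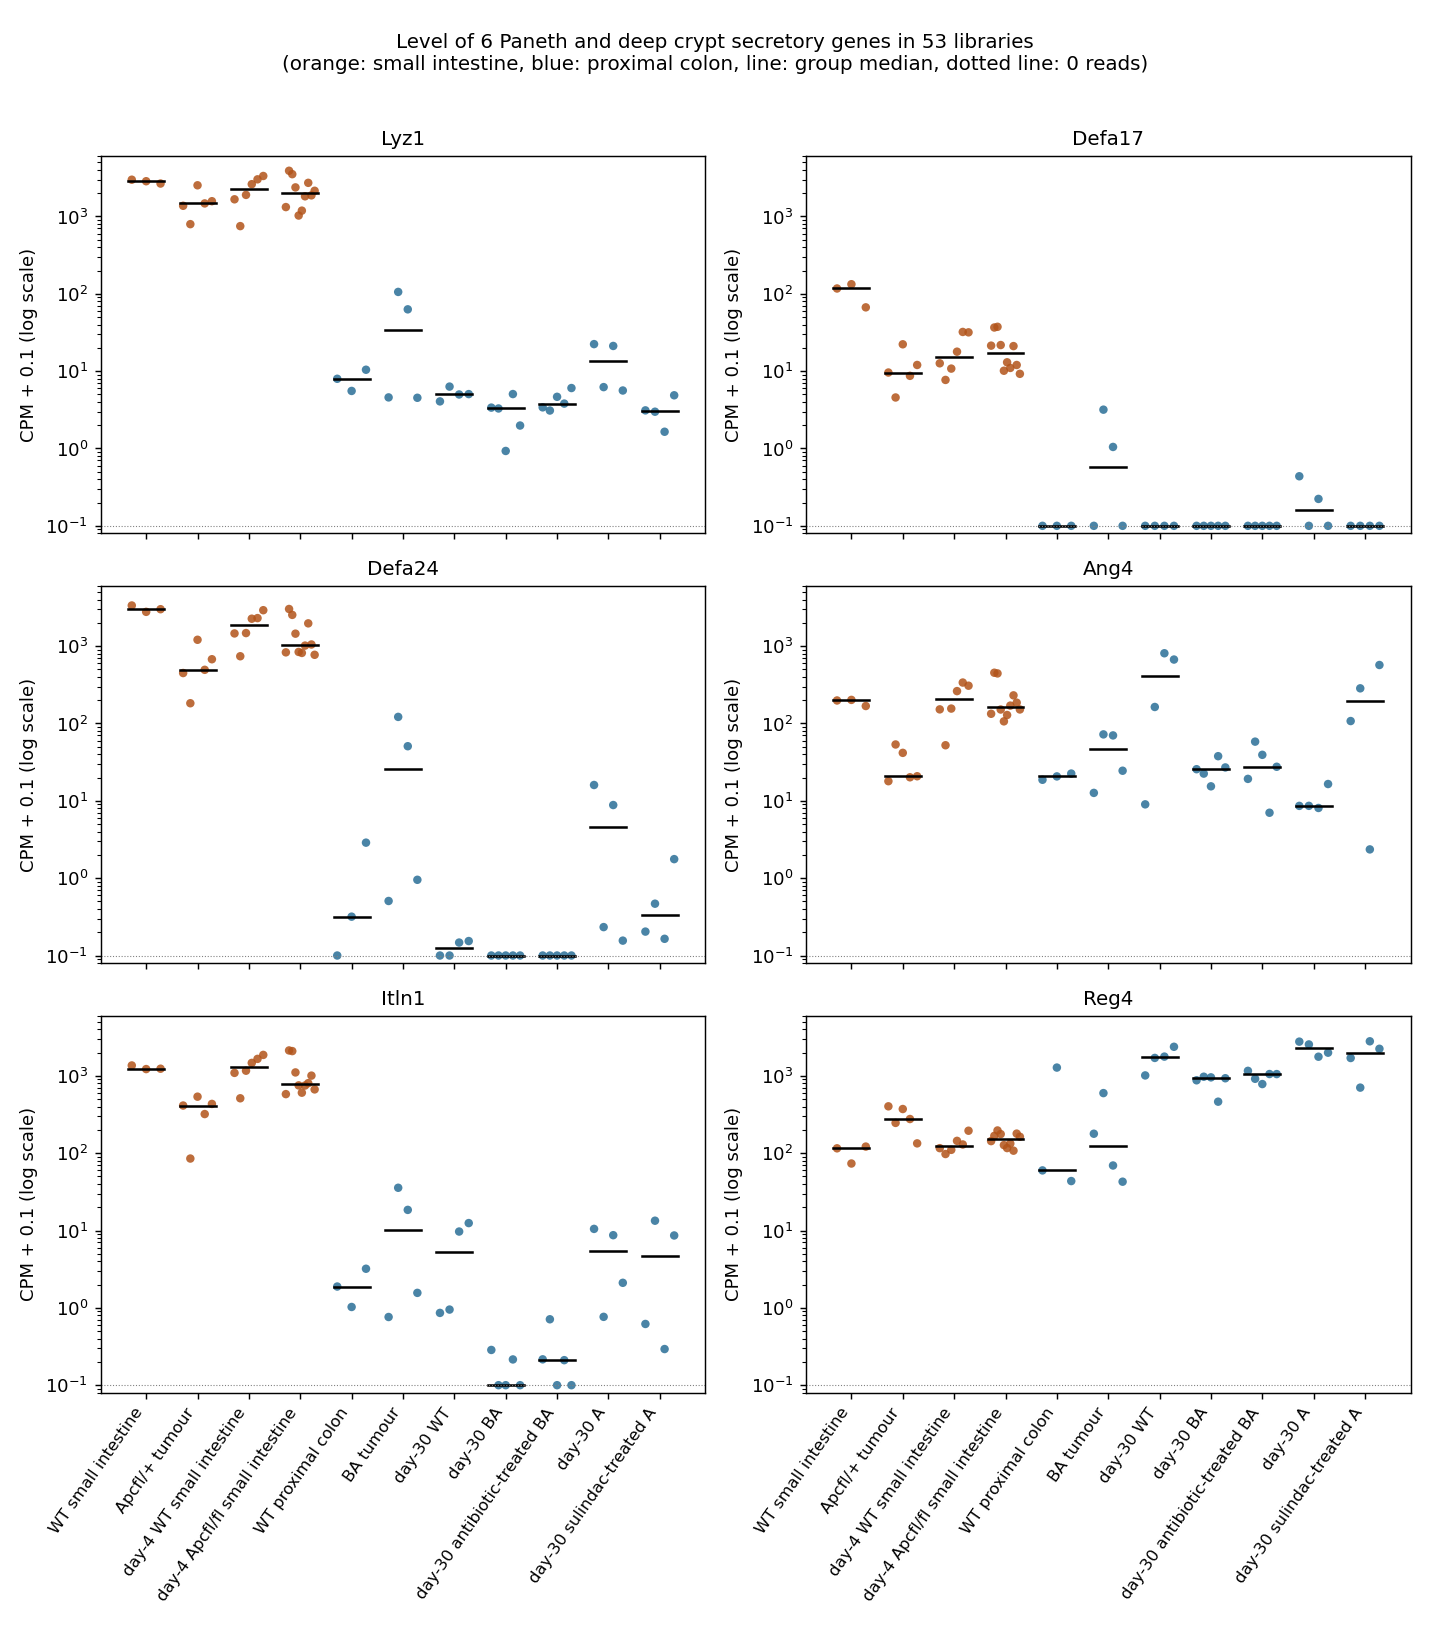
CPM + 0.1 on a logarithmic scale for each of the 6 genes in every library, by group (points are libraries, orange for small intestine and blue for proximal colon; bars are group medians; the dotted line marks 0 reads). Lyz1, Defa17, Defa24 and Itln1 are higher in all 24 small intestine libraries than in all 29 proximal colon libraries, Reg4 is highest in the day-30 colon groups, and Ang4 spreads over both tissues.

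Lyz1, both defensins and Itln1 were higher in normal small intestine than in normal proximal colon, and Reg4 was lower. Over 9 WT libraries of the small intestine and 7 of the proximal colon, 56.3% of all genes tested passed an adjusted p of 0.05 in edgeR's quasi-likelihood test. Of the 6 members 4 were higher and 1 was lower. The ranges of those 4 did not overlap between the tissues, as was true of 7.2% of all genes tested in that direction. In bulk tissue, fewer cells of a type and less RNA per cell cannot be told apart.

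Lyz1 was at 2989, 2857 and 2667 CPM in the 3 WT small intestine libraries, and at 751 to 3339 CPM in the day-4 WT libraries with a median of 2259 CPM. It was at 7.87, 5.45 and 10.3 CPM in WT proximal colon and at 3.96, 6.22, 4.89 and 4.95 CPM in day-30 WT colon. The tissues were far from overlapping. The difference was 8.66 on the log2 scale (SE 0.33, adjusted p = 2.52e-12), and the ratio of means was 360 for the WT pair without a day and 443 for day-4 against day-30 tissue. Lyz2 went the other way and was lower in the small intestine by a small margin, with a log2 difference of -0.57 (adjusted p = 0.0021). As a result Lyz1 had 7.89 to 37.5 reads for each read of Lyz2 in the 9 normal small intestine libraries and 0.0242 to 0.0495 in the 7 normal colon libraries. Because 28.5% of the 36-base words of Lyz1 also occur in Lyz2, the few colon reads of Lyz1 depend on how reads were assigned. The ratios of means are uncertain to that extent.

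Defa24 was at 3357, 2778 and 3005 CPM in WT small intestine and at 740 to 2917 CPM in day-4 WT tissue. In WT proximal colon it was at 0, 0.218 and 2.78 CPM and in day-30 WT colon at 0, 0, 0.0471 and 0.0538 CPM. The log2 difference between the tissues was 13.72 (SE 0.79, adjusted p = 2.55e-10), and the ratio of means was 3049 for the pair without a day. Of the 64 reads of Defa24 in WT proximal colon, 60 came from library 3, which carried Fabp6, so that ratio rests on it. Leaving out 1 library at a time gave log2 differences of 13.37 to 15.38. Defa17 was at 117, 133 and 66.7 CPM in WT small intestine, at 7.60 to 32.0 CPM in day-4 WT tissue, and had no read in any of the 7 normal colon libraries. A floor of 3 counts per library, at the median total of the WT colon group, equals 0.139 CPM, so the mean of WT small intestine was at least 760-fold higher, for counting error only. It passed the test (adjusted p = 1.75e-08), which it entered through its small intestine counts alone. The ranges of Defa17 did not overlap between WT small intestine and day-4 WT, and those of Defa24 did. The share of all genes that were apart in this way was not counted. Of the 36-base words of Defa17, 93.1% occur in other genes, so its value also depends on how reads were assigned. These groups differ in labelled background and in time, which cannot be told apart. Of the 39 genes named as alpha-defensins, 19 were tested and all 19 were higher in the small intestine, with a median log2 difference of 10.31 against -0.05 over all genes tested. Defa30, the second most abundant, had 14.26. All 39 together were at 0.0344 to 5.42 CPM in WT proximal colon and at most 0.0538 CPM in day-30 WT colon. Defensins therefore passed the low-count filter through their small intestine counts, which fixed the direction in advance. Their folds are set by near-zero colon counts.

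Itln1 binds sugars on bacterial surfaces. It was at 1362, 1223 and 1236 CPM in WT small intestine and at 512 to 1865 CPM in day-4 WT, against 1.79, 0.926 and 3.10 CPM in WT proximal colon and 0.760, 0.850, 9.60 and 12.4 CPM in day-30 WT colon. The log2 difference was 8.58 (SE 0.65, adjusted p = 9.1e-09). Day-30 WT colon libraries 3 and 4 were far above libraries 1 and 2, and they were also the libraries with most Ang4.

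Ang4, a ribonuclease-family protein that kills bacteria and is made by Paneth and goblet cells, did not follow the other Paneth genes. It was at 198, 202 and 168 CPM in WT small intestine and 18.6, 20.6 and 22.4 CPM in WT proximal colon, a ratio of means of 9.22. Day-4 WT small intestine held 52.2 to 338 CPM, whereas the day-30 WT colon libraries held 8.91, 163, 810 and 671 CPM, so that here the ratio of means was 0.512. Within that colon group the highest library was far above the lowest, and the range covered all 3 WT proximal colon libraries. Over both pairs the log2 difference was 1.13 (95% interval -0.07 to 2.32, adjusted p = 0.101), and it turned to -0.86 for day-4 against day-30 tissue alone.

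Reg4, a lectin-like secreted protein, was at 115, 73.4 and 122 CPM in WT small intestine and 97.4 to 195 CPM in day-4 WT. In WT proximal colon it was at 59.8, 1279 and 43.5 CPM, and in day-30 WT colon at 1013, 1705, 1773 and 2375 CPM. WT proximal colon libraries 1 and 3, those with Fabp6, lay below every normal small intestine library, and all other normal colon libraries lay far above. The log2 difference was -2.93 (SE 0.56, adjusted p = 0.000287). It was -3.72 without WT proximal colon libraries 1 and 3 and -1.31 without library 2, and between WT small intestine and WT proximal colon alone it was not called (-2.33, adjusted p = 0.122). Among the 9 listed genes of deep crypt secretory cells 7 were lower in the small intestine and 2 were higher, with a median of -1.87. The resistin-like gene Retnlb had the lowest value, -10.03, and the Notch ligand gene Dll1 the highest, 2.29. Of the 20 listed Paneth genes 12 were higher and 6 lower, the pentraxin-like Mptx2 having 10.20 and the stress-response gene Nupr1 -3.88.

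Tumours of the small intestine had less of 4 members and more Reg4 than WT small intestine. In this comparison 61.5% of the 20567 genes tested were called, so a call is common among all genes. For 4 members lower and 1 higher, the median log2 difference was -2.06 over the 6, against 0.03 over all genes.

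The defensins and Ang4 fell most. Defa17 was at 9.50, 4.47, 22.1, 8.60 and 11.9 CPM in the 5 Apcfl/+ tumours, against 66.7 to 133 CPM in WT, and fell by 3.21 on the log2 scale (SE 0.47, adjusted p = 0.000531). Defa24 was at 449, 183, 1209, 494 and 678 CPM and fell by 2.32 (SE 0.51, adjusted p = 0.00422). Ang4 was at 17.9, 53.4, 41.6, 20.1 and 20.7 CPM and fell by 2.66 (SE 0.33, adjusted p = 0.00024). For all of these each tumour lay below each WT library, which 27.4% of all genes tested also showed, and 31.5% lay wholly above. Itln1 was at 413, 85.1, 538, 320 and 433 CPM, below the 1223 to 1362 CPM of WT, and fell by 1.81 (SE 0.48, adjusted p = 0.0108). Lyz1 was at 1375, 796, 2531, 1475 and 1576 CPM, again below every WT library, with a log2 difference of -0.86 (SE 0.36, adjusted p = 0.0619) that missed the threshold. It passed in DESeq2, with scaling by library totals, and without tumour 2 (-0.67, adjusted p = 0.0246) or tumour 3. Reg4 was at 403, 246, 372, 276 and 134 CPM, each above the highest WT library at 122 CPM, and rose by 1.48 (SE 0.37, adjusted p = 0.00762).

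Lyz1 kept more of its WT level than Defa24 did. Reads of Lyz1 for each read of Defa24 were 0.887 to 1.03 in WT and 2.09 to 4.36 in the tumours, which do not overlap. In day-4 tissue they were 1.01 to 1.31 in WT and 1.22 to 2.78 in Apcfl/fl. The day-4 Apcfl/fl range overlapped both that of day-4 WT and that of the tumours. All alpha-defensins together took 0.435 to 0.520% of reads in WT and 0.0278 to 0.191% in the tumours, with tumour 2 lowest and tumour 3 highest. Tumour 2, the library with colon markers, was also the lowest of the 5 for Lyz1, Defa17, Defa24 and Itln1. Without it the count of called members rose from 5 to 6, so that none of the calls rested on it.

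Related genes of the lists moved in both directions. Of 20 alpha-defensins tested 13 fell and none rose, with a median of -2.17. The lowest was Defa26 at -4.32, and Defa2 had the highest value at -0.30. Of 19 Paneth genes tested 6 rose and 5 fell. RNA of the phospholipase gene Pla2g2a rose by 3.21, and after Ang4 the lowest value was that of Guca2b (uroguanylin), which fell by 2.66. Genes of deep crypt secretory cells rose in 5 of 9 cases, namely Retnlb by 6.22, Cd24a by 2.20, Agr2 by 1.90, Spink4 by 1.23 and Reg4 itself, while Dll1 fell by 1.14. Of 13 regulators of the secretory lineage 8 rose and 2 fell, with Creb3l4 highest at 2.49 and Sox9, which Paneth cells need, at 2.09. All 11 Wnt target genes rose (median 2.09). Of 8 goblet genes 4 fell and 2 rose. Neutrophil genes, which are not epithelial, rose in 7 of 8 cases, and their summed level was 37.5 to 50.9 CPM in WT and 152 to 250 CPM in the tumours. The part of these cells in the result was not tested. Ddx3y, a Y-linked gene, exceeded 10 CPM in 3 of 3 WT libraries and 1 of 5 tumours, and with a term for it 3 members stayed called, Defa17, Ang4 and Reg4. Gm13394 exceeded 10 CPM in each WT library and in no tumour and so cannot be told apart from the tumour.

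**Figure D2:**
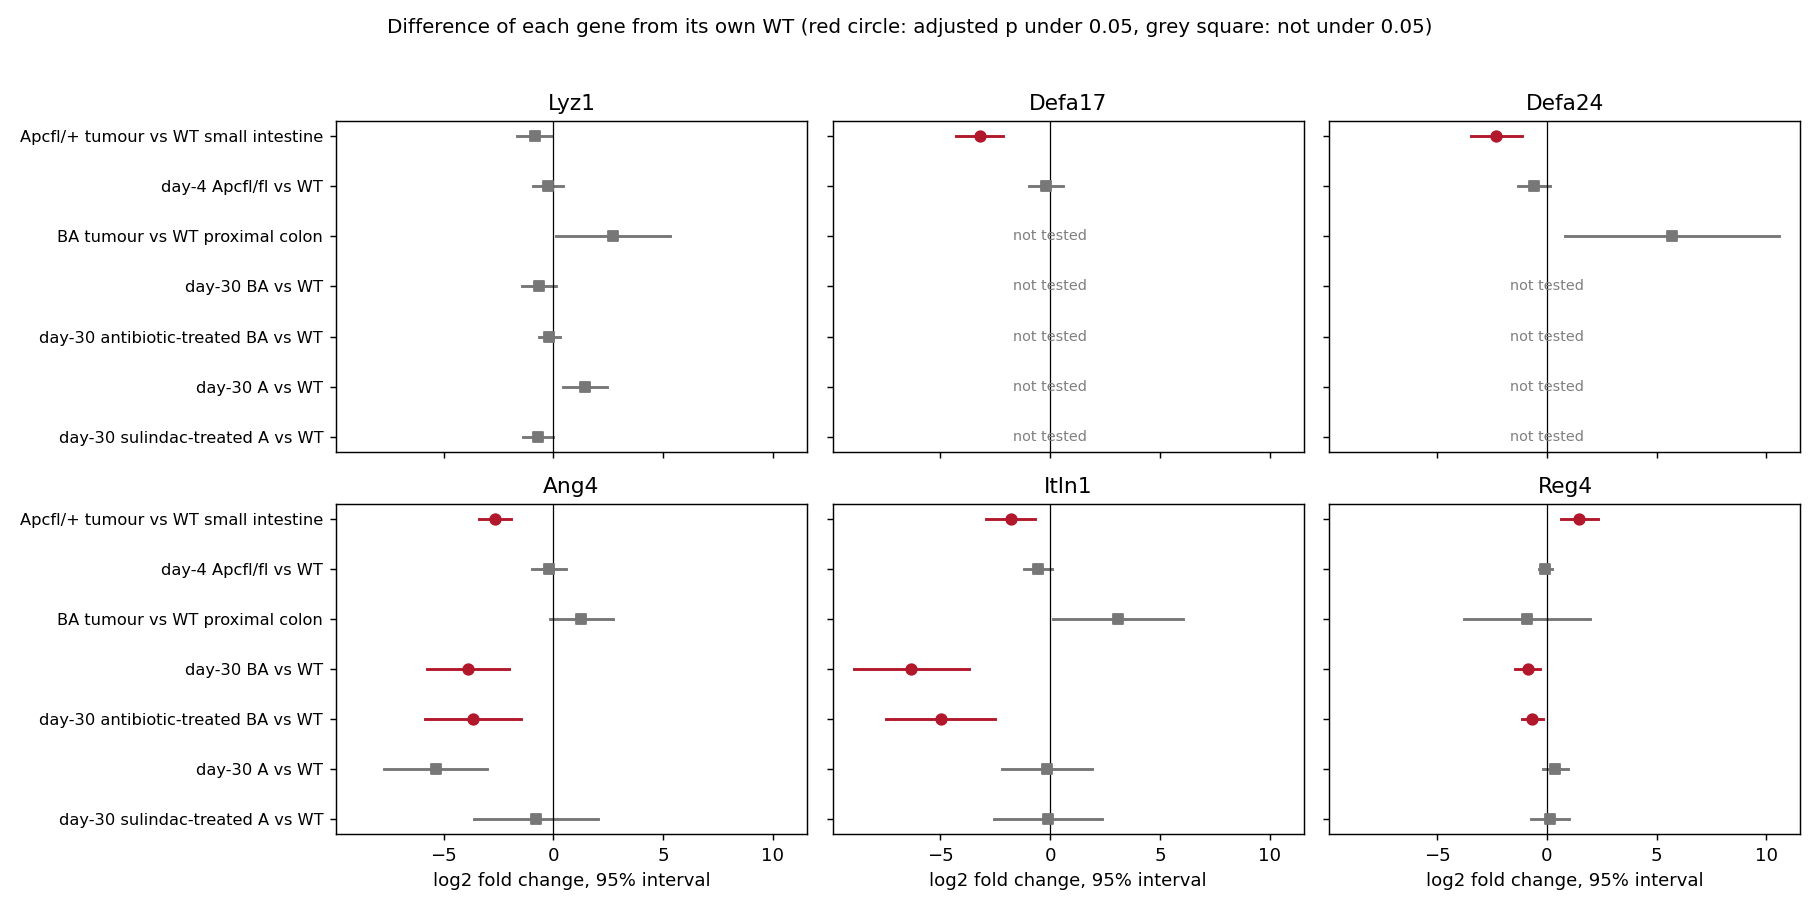
Log2 difference of each gene from its own WT in 7 comparisons, with 95% intervals from edgeR (red circles have an adjusted p under 0.05 and grey squares do not; untested genes are named so). In the Apcfl/+ tumours 4 red points lie below 0 and Reg4 lies above, and no point is red for day-4 Apcfl/fl tissue.

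**Figure D3:**
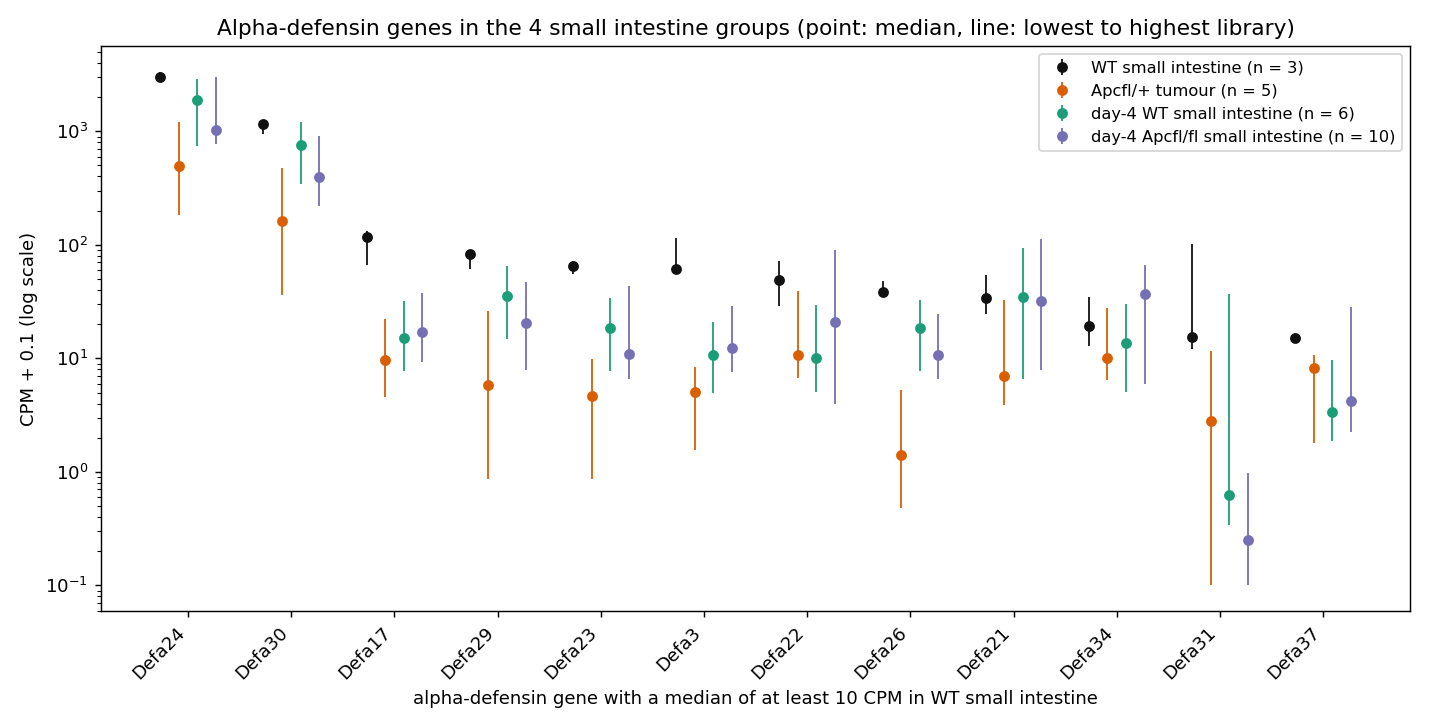
CPM + 0.1 on a logarithmic scale of the alpha-defensin genes with a median of at least 10 CPM in WT small intestine, in the 4 small intestine groups (points are medians, lines run from the lowest to the highest library). Defa24 and Defa30 are the most abundant in each group, and the Apcfl/+ tumours lie below WT for Defa24, Defa30 and Defa17.

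No member passed the test 4 days after induction of Apc loss. Of all genes tested 54.2% were called, but 0 of the 6 members were called by edgeR, none had an unadjusted p below 0.05, and DESeq2 also called 0. Lyz1 was at 1029 to 3901 CPM in Apcfl/fl tissue (median 2013, n = 10) and 751 to 3339 CPM in WT (median 2259, n = 6). Defa24 was at 773 to 3024 CPM (median 1034) against 740 to 2917 CPM (median 1871). Defa17 was at 9.14 to 37.4 CPM (median 17.0) against 7.60 to 32.0 CPM (median 15.2). In each of these the groups overlapped over nearly their whole range. Itln1 was at 580 to 2130 CPM (median 778) against 512 to 1865 CPM (median 1318), Ang4 at 107 to 453 CPM (median 161) against 52.2 to 338 CPM (median 209), and Reg4 at 108 to 197 CPM (median 153) against 97.4 to 195 CPM (median 123). The log2 differences ranged from -0.59 for Defa24 (95% interval -1.33 to 0.14, adjusted p = 0.161) to -0.07 for Reg4 (-0.36 to 0.22). That of Itln1 was -0.55 (-1.20 to 0.10, adjusted p = 0.139), and it was called without Apcfl/fl library 2 or without library 3.

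The test of the difference between the tumour effect and the day-4 effect called 4 members, with 24.7% of all genes called. Defa17 (-3.07, SE 0.62, adjusted p = 0.00123), Ang4 (-2.52, SE 0.59, adjusted p = 0.00375) and Defa24 (-1.76, SE 0.64, adjusted p = 0.0448) were lower in the tumour effect, and Reg4 was higher (1.52, SE 0.33, adjusted p = 0.00201). The Defa24 call was lost in 17 of 32 alternatives (adjusted p up to 0.0882), among them the fits without any 1 of the WT small intestine libraries, of day-4 WT libraries 1 to 5, of Apcfl/fl libraries 2, 3 and 4, or of tumours 1, 2 and 4. Lyz1 (-0.66, adjusted p = 0.392) and Itln1 (-1.30, adjusted p = 0.106) were not called. In day-4 tissue all 11 Wnt target genes rose (median 2.25). Mmp7 rose by 1.23 there and by 1.02 in the tumours. Of 17 alpha-defensins tested at day 4, Defa-ps6 (1.99) and Defa34 (0.93) rose and Defa30 (-0.90) fell. Reads of Defa24 for each read of Defa30 were 2.11 to 2.80 in day-4 WT and 2.51 to 3.49 in Apcfl/fl tissue. Goblet genes fell in 6 of 8 cases at day 4, Clca1 by 2.15 and Muc2 by 1.96.

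Lyz1, Defa24 and Itln1 were low in WT proximal colon and in BA tumours 1 and 4, and higher in BA tumours 2 and 3. Of the genes tested 13.2% were called. Of 5 members tested edgeR called 0, although 3 had an unadjusted p below 0.05, and DESeq2 called 0. BA tumours 1 to 4 held 4.48, 106, 62.9 and 4.43 CPM of Lyz1, and WT held 5.45 to 10.3 CPM. Defa24 was at 0.407, 122, 50.8 and 0.853 CPM against 0, 0.218 and 2.78 CPM. Itln1 was at 0.661, 35.6, 18.4 and 1.46 CPM against 0.926 to 3.10 CPM. Tumours 2 and 3 stood above all WT libraries for each of these genes, and tumours 1 and 4 were within or below the WT range. Defa17 had 37 reads in tumour 2 (3.08 CPM), 17 in tumour 3 (0.947 CPM) and none in the other tumours or in WT, and was too low to be tested. Ang4 was at 12.6, 72.2, 70.0 and 24.4 CPM against 18.6 to 22.4 CPM, again with tumours 2 and 3 highest. The log2 differences were 2.72 for Lyz1 (95% interval 0.11 to 5.34, adjusted p = 0.16), 5.71 for Defa24 (0.84 to 10.58, adjusted p = 0.118), 3.09 for Itln1 (0.13 to 6.04, adjusted p = 0.16) and 1.27 for Ang4 (-0.17 to 2.70, adjusted p = 0.231).

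Reg4 was present in the BA tumours at 178, 598, 69.2 and 42.7 CPM, with a log2 difference of -0.90 (-3.79 to 1.98, adjusted p = 0.697). WT library 2, at 1279 CPM, decided its direction, since without it the value was 2.34. Without BA tumour 2, which carried small intestinal markers, the differences were 1.59 for Lyz1, 4.12 for Defa24 and 1.80 for Itln1, and no member was called. Without WT proximal colon libraries 1 and 3, which leaves 1 WT library assumed to vary like the tumours, they were 3.16 for Lyz1, 7.76 for Defa24, 4.05 for Itln1 and -2.40 for Reg4, again with none called. With no filter on low counts 5 members were called, and the share of all genes under that setting is not given here. Ddx3y exceeded 10 CPM in 0 of 3 WT libraries and in 3 of 4 BA tumours, the exception being tumour 1. With a term for Ddx3y, which leaves tumour 1 to be set against WT, the values of Lyz1, Defa24, Ang4 and Itln1 fell below 0.

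Gata4 and Fabp1, markers of proximal small intestine, were raised in BA tumour 2 and had no read in BA tumour 3, and their part in the high Paneth genes was not tested. Over the 7 genes of that list WT small intestine had a summed level of 3499 to 6665 CPM, WT proximal colon 69.4 to 284 CPM and the BA tumours 73.2 to 389 CPM. Tumour 3 had 911 reads of Defa24 but 1 read of Defa30, and tumours 2 and 4 had 24.4 and 10.5 reads of Defa24 for each of Defa30, whereas all 24 small intestine libraries had 2.11 to 5.04. A libraries 1 and 3 of the day-30 colon had 3.69 and 3.23. The value of BA tumour 4 rests on only 21 reads of Defa24 and 2 reads of Defa30. In BA tumour 2 and BA tumour 3 the other ratios were like those of the small intestine, with 39.5 and 53.6 reads of Defa24 for each of Defa17 and 0.869 and 1.24 reads of Lyz1 for each of Defa24. Mmp7 rose by 4.93 over WT and Pla2g2a by 4.01, while Mptx1, a pentraxin-like secreted protein, fell by 5.80. The fold of Mptx1 is set by BA tumour levels of 0 to 0.102 CPM. Macrophage genes rose in 2 of 10 cases, and their summed level was 843 to 1843 CPM in the tumours and 542 to 628 CPM in WT. Lyz2 rose by 1.78, and Lyz1 had 0.00465 to 0.120 reads for each read of Lyz2.

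The tumour effects of the 2 tissues differed in 5 of the 6 members by the test of the difference. Of all genes 39.7% were called, and 21.9% were called as lower. The tumours also differed in genotype and labelled background, which cannot be told apart from tissue. The effect in the small intestine was lower for Lyz1 (-3.59, SE 1.23, adjusted p = 0.0322), Defa24 (-8.05, SE 2.19, adjusted p = 0.011), Ang4 (-3.94, SE 0.77, adjusted p = 0.00182) and Itln1 (-4.90, SE 1.43, adjusted p = 0.0155), and for Defa17 (adjusted p = 0.00647), for which a fold has no meaning because WT colon was at 0. Defa17 was too low to be tested in the BA tumours and entered this fit through its small intestine counts. Its call thus rests on no tested effect in the colon. That of Reg4 was not called (2.37, adjusted p = 0.209). The Lyz1 call was lost in 14 of 23 alternatives, among them the fits without any 1 of the WT libraries of either tissue, of BA tumours 2 and 3, or of Apcfl/+ tumours 1, 4 and 5. Leaving out the tumour 2 of both tissues gave -2.21 for Lyz1 (adjusted p = 0.0965) and added that of Reg4 (4.08, adjusted p = 0.0253). A term for Ddx3y left 0 called. Ddx3y exceeded 10 CPM in 3 of 3 WT and 1 of 5 tumours of the small intestine. In the colon it did so in 0 of 3 WT and 3 of 4 tumours.

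In day-30 BA colon Itln1, Ang4 and Reg4 fell. Of all genes tested 55.1% were called, 29.3% as lower, and of 4 members tested 3 were called, all as lower. Itln1 was at 0.186, 0, 0, 0.115 and 0 CPM in BA against 0.760, 0.850, 9.60 and 12.4 CPM in WT. Every BA library was below every WT library, and 3 of 5 had no read. Its fitted log2 difference was -6.33 (SE 1.20, adjusted p = 0.000873). Itln1 entered this test through its WT counts alone, which fixed its direction in advance, and near-zero BA counts set its fold. Ang4 was at 25.5, 22.4, 15.3, 37.7 and 26.9 CPM in BA against 8.91, 163, 810 and 671 CPM in WT. The BA libraries were close to each other and lay between WT library 1 and the other WT libraries. The log2 difference was -3.88 (SE 0.86, adjusted p = 0.00261).

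Reg4 was at 876, 974, 956, 463 and 931 CPM in BA, below the 1013 to 2375 CPM of WT, and fell by 0.88 (SE 0.25, adjusted p = 0.0115). The ranges of both Itln1 and Reg4 were apart, as were those of 32.0% of all genes tested in the same direction. Lyz1 was at 3.28, 3.19, 0.829, 4.96 and 1.88 CPM, with a log2 difference of -0.67 (95% interval -1.44 to 0.11, adjusted p = 0.131). No BA library had a read of Defa17 or Defa24. A count of 0 allows up to 0.173 CPM per library, and day-30 WT was itself at or under its floor of 0.160 CPM.

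Deep crypt secretory genes fell in 7 of 9 cases in day-30 BA. Retnlb fell by 2.89, the growth factor gene Egf by 2.23 and the receptor gene Kit by 1.37, while Agr2, a protein-folding enzyme of secretory cells, rose by 0.91. Goblet genes did not fall, with 3 of 8 rising, and Muc2 had -0.05. Of 16 Paneth genes tested 10 fell and 3 rose. Mptx1 fell by 9.24, Pla2g2a rose by 4.00, Pnliprp2, a lipase, rose by 3.43 and the Wnt receptor gene Fzd5 rose by 0.34. The fold of Mptx1 is set by BA levels of 0 to 0.054 CPM. Smooth muscle genes fell in 6 of 8 cases, and their summed level was 5656 to 6282 CPM in WT and 973 to 3964 CPM in BA, while epithelial genes rose in 9 of 10 cases, from 1.11e+04 to 1.35e+04 CPM in WT to 2.01e+04 to 2.36e+04 CPM in BA. The part of this difference in tissue make-up in the falls was not tested. Gm13394 exceeded 10 CPM in 0 of 4 day-30 WT libraries and in all libraries of the other day-30 groups. It therefore cannot be told apart from genotype in any day-30 comparison with WT.

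Itln1, Ang4 and Reg4 were also called lower in BA colon with antibiotics. Treated BA colon had 39.6% of genes called against WT, 17.8% as lower, and all day-30 comparisons with WT share the 4 WT libraries. Itln1 was at 0.116, 0.612, 0, 0.111 and 0 CPM, below every WT library as were 19.8% of all genes. Its log2 difference was -5.00 (SE 1.13, adjusted p = 0.00551). Itln1 again entered the test through its WT counts, and near-zero BA counts set its fold. Ang4 was at 19.1, 58.2, 39.2, 6.92 and 27.5 CPM (-3.66, SE 0.99, adjusted p = 0.0144), and Reg4 was at 1160, 916, 783, 1055 and 1054 CPM (-0.68, SE 0.22, adjusted p = 0.0299). Both overlapped the WT range, Reg4 only through WT library 1. The Reg4 call was lost in 8 of 15 alternatives (adjusted p up to 0.113), among them the fits without treated library 2, 4 or 5 or without WT library 2, 3 or 4. Lyz1 was at 3.00 to 5.95 CPM (-0.19, 95% interval -0.66 to 0.29, adjusted p = 0.527).

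Between treated and untreated BA, 13.0% of genes were called but 0 of 3 members tested, 0 had an unadjusted p below 0.05, and DESeq2 called 0. The differences were 0.47 for Lyz1 (95% interval -0.32 to 1.27), 0.20 for Ang4 (-0.78 to 1.18) and 0.19 for Reg4 (-0.23 to 0.61). Itln1 and the defensins were too low to be tested. Rnase1, a secreted pancreatic-type ribonuclease related to Ang4, rose by 4.43 in BA and by a further 2.85 with antibiotics (adjusted p = 0.0026). It was at 0.272 to 0.531 CPM in WT, 5.36 to 11.7 CPM in BA and 18.4 to 124 CPM in treated BA, none of which overlap. Pla2g2a fell by 1.73 with antibiotics.

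Loss of Alk5 alone changed few genes by this test, 0.141% of all. Of 4 members tested edgeR called 0, and 2 had an unadjusted p below 0.05. DESeq2 called 2, Defa24 and Ang4, and the share of all genes that it called is not given here. Ang4 was at 8.50, 8.51, 7.99 and 16.4 CPM in A libraries against 8.91, 163, 810 and 671 CPM in WT. Of these A libraries 3 were below every WT library and 1 was above WT library 1. The log2 difference was -5.37 (SE 1.05, unadjusted edgeR p = 0.000386, adjusted p = 0.167), and Ang4 was called without WT library 1. Lyz1 was at 22.3, 6.12, 21.1 and 5.52 CPM against 3.96 to 6.22 CPM, with a difference of 1.43 (SE 0.46, adjusted p = 0.465). Defa24 was at 15.9, 0.133, 8.72 and 0.0558 CPM, which is above every WT library, as was true of 4.08% of all genes tested. The values 0.133 and 0.0558 CPM, from 2 reads and 1 read, are under the counting floor of 0.192 CPM. Defa17 had 5 reads in A library 1 and 2 in library 3. Itln1 was at 10.4, 0.665, 8.60 and 2.01 CPM (-0.15, 95% interval -2.21 to 1.90), and Reg4 at 2769, 2547, 1767 and 1993 CPM (0.37, -0.20 to 0.94).

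The high values of Lyz1, Defa24 and Itln1 in A were those of libraries 1 and 3, which also held Fabp6. Over the 6 ileal genes of the list the summed level was 337 to 1069 CPM in A and 291 to 540 CPM in day-30 WT. Mmp7 was at 11.9 and 3.69 CPM in these libraries and at 0.133 and 1.00 CPM in the others. Without both libraries the difference was 0.14 for Lyz1 and -2.20 for Itln1, and no member was called.

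With sulindac 0.0507% of genes differed from WT, and edgeR called 0 of 4 members, of which 1 had an unadjusted p below 0.05. Ang4 was at 107, 285, 2.26 and 571 CPM in treated A, again with a spread like that of WT (-0.79, 95% interval -3.64 to 2.06). Lyz1 was at 3.01, 2.89, 1.55 and 4.77 CPM (-0.70, -1.39 to -0.02, adjusted p = 0.548), and Defa24 was at 0.0644 to 1.66 CPM, above every WT library as were 1.51% of all genes. The Defa24 values of treated libraries 1 and 3, 0.104 and 0.0644 CPM, are under the counting floor of 0.159 CPM. Itln1 was at 0.519, 13.3, 0.193 and 8.53 CPM (-0.10, -2.57 to 2.36) and Reg4 at 1700, 704, 2797 and 2238 CPM (0.13, -0.75 to 1.00). Between treated and untreated A edgeR called no gene at all (0.0%) and DESeq2 called 7 genes, none a member. For 4 members tested, 2 had an unadjusted p below 0.05. Lyz1 was lower in every treated library than in every untreated 1 (-2.11, unadjusted edgeR p = 0.00234, adjusted p = 1.00), as were 1.65% of all genes, and Ang4 was 4.61 higher (unadjusted edgeR p = 0.00174, adjusted p = 1.00) with overlap. Itln1 had 0.07. Without untreated libraries 1 and 3, those with Fabp6, the differences were -0.83 for Lyz1, 4.37 for Ang4 and 2.11 for Itln1.

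**Figure D4:**
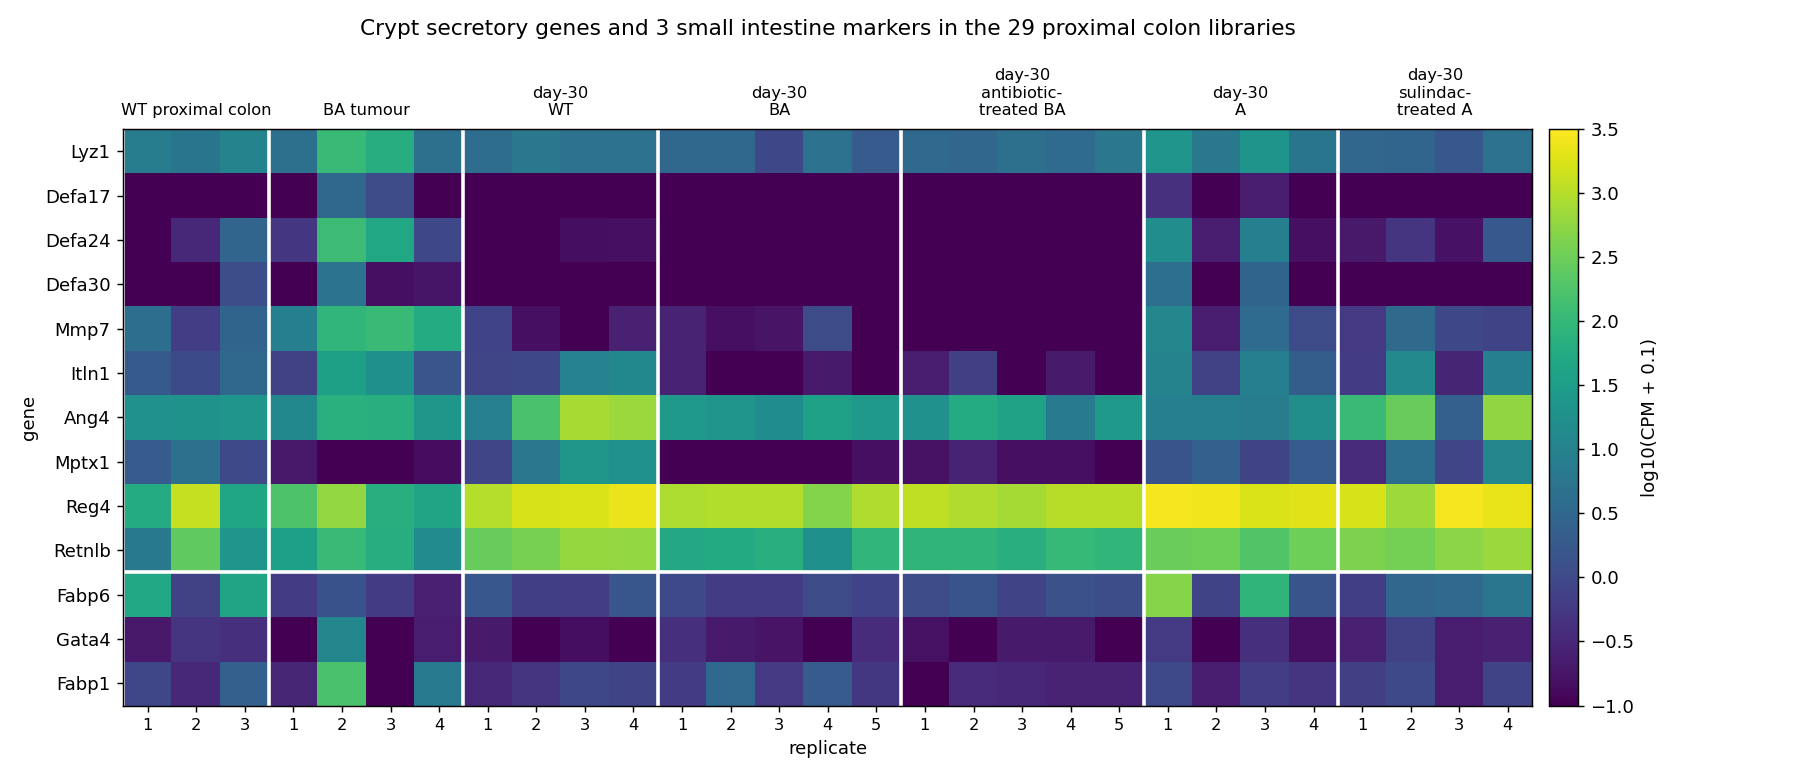
Heat map of log10(CPM + 0.1) for members, related genes and 3 small intestine markers (rows) in the 29 proximal colon libraries (columns, by group and replicate). In day-30 WT the libraries with most Ang4 (810 and 671 CPM) also have most Itln1 (9.60 and 12.4 CPM), and A libraries 1 and 3 stand apart by Lyz1, Defa24 and Fabp6.

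In day-30 WT and in A with sulindac, the libraries with most Ang4 also had most Itln1 and Mptx1. In the BA tumours and in WT proximal colon this held for Itln1 but not for Mptx1. In untreated A it held for neither. In day-30 WT, Mptx1 was at 0.760, 6.16, 23.8 and 18.6 CPM in libraries 1 to 4, in which Ang4 was at 8.91, 163, 810 and 671 CPM. WT library 1, lowest in both, had 1855 CPM of Reg3b, an antibacterial lectin of enterocytes, against 0.659 to 6.35 CPM in the other libraries. Treated A libraries 2 and 4, highest in Ang4, were at 4.20 and 12.0 CPM of Mptx1 and libraries 1 and 3 at 0.260 and 0.773 CPM. In day-30 BA Reg3b fell by 4.88 and Reg3g fell by 4.22 in the test, with WT library 1 holding most of the WT counts of both.

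Across all 53 libraries, which mix tissues, genotypes and backgrounds, the members formed 1 close set and 2 separate genes. Pearson's r of log2 CPM was 0.941 to 0.981 between Lyz1, Defa17, Defa24 and Itln1, 0.482 to 0.599 between these and Ang4, and -0.682 to -0.642 between these and Reg4. Among 16634 other genes, Lyz1 was most like Defa30 (0.982), Mptx2 (0.978) and Defa34 (0.974), Defa17 like Defa30 (0.976), Defa3 (0.968) and AY761184 (0.965), and Defa24 like Defa30 (0.976), the stem-cell gene Olfm4 (0.965) and Ms4a10 (0.963). Itln1 was most like Abcg8 (0.964), Rec8 (0.960) and Abcg5 (0.958), of which Abcg5 and Abcg8 form a sterol transporter of enterocytes. Reg4 was most like 9130204K15Rik (0.910), St3gal5 (0.904) and Gal3st2c (0.886). For Ang4 the 3 highest values were lower, at 0.629 for Timd4, 0.624 for Adora2b and 0.623 for Mcoln3. The points share the tissue difference, and the defensins share reads, so the values are a description only.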

How the data were processed

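RNA was sequenced on an Illumina NextSeq as paired reads of 36 bases from TruSeq v2 libraries. The authors deposited 1 table of raw counts per gene, made per the labels and the study's methods with FastQC 0.11.8, Trim Galore 0.6.4, HISAT2 2.1.0 and featureCounts 1.6.4 on GRCm38. How reads with several matches or strand were handled is not given in the sources used here. Groups came from the sample labels, which number libraries without naming animals, so p-values measure the spread between libraries. The smallest chi-square per degree of freedom between replicates was 4.18, and every library was counted as 1 replicate.

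CPM are counts scaled to the library total. Each comparison was fitted on the whole table over its own groups with edgeR 4.0.16 in R 4.3.3 (filterByExpr, TMM, quasi-likelihood test, two-sided, Benjamini-Hochberg adjusted p below 0.05), and differences between effects were tested as interaction terms. SEs are the size of the log2 difference over the root of F, and intervals use the t distribution. All log2 differences are first group minus second. The fit was tested on simulated data. Alternatives were RLE scaling, library totals, no low-count filter, DESeq2 1.42.0, the replicate number as a block, terms for Ddx3y and Gm13394 over 10 CPM, a shared day-30 fit and leaving out libraries, those left out together having been chosen after seeing the data. The study's own test was DESeq2.

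Floors are 3 counts at the group's median total and cover counting error only. The members and gene lists were chosen with earlier results of these data known. Beside the members, genes were named where they had the highest or lowest difference of a list or were among its 5 most expressed, and the 3 genes most alike each member. Ddx3y, Gm13394, Hoxb13, Mptx1 levels, Guca2b, Mmp7, Defa34, Pla2g2a, Pnliprp2, Fzd5, Egf and Kit were named after their values were seen where that rule did not reach them.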

Additional observations from a re-analysis of the deposited data

Results flagged for a closer look

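In 3 of 48 sets of group values searched, 1 library stood apart from its group by Dixon's criterion, and chance gives about 5 percent of such sets. These were Ang4 in day-30 A library 4 at 16.4 CPM, Itln1 in antibiotic-treated BA library 2 at 0.612 CPM and Reg4 in day-30 BA library 4 at 463 CPM.

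The effect of tumour on 5 members differed between the tissues in edgeR's interaction test, the small intestinal minus the colonic log2 difference being -3.59 for Lyz1, -10.6 for Defa17 (a fitted value with a group at 0, and so no bound), -8.05 for Defa24, -3.94 for Ang4 and -4.90 for Itln1. Of these, Defa17 was too low to be tested in the colon comparison alone. The tumours of the 2 tissues also differ in genotype and labelled background, which cannot be told apart from tissue. The tumour effect minus the day-4 effect of Apc loss in the small intestine was -3.07 for Defa17, -1.76 for Defa24, -2.52 for Ang4 and 1.52 for Reg4. The tumours and their WT differ from the day-4 libraries in labelled background, which cannot be told apart from the difference in stage.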

How the results depend on the processing

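Of 1133 log2 differences of members recomputed under alternatives, 1029 kept their direction and their side of the threshold, 50 lost the threshold, 19 gained it and 35 changed direction. Of 224 counts of called members 213 stayed within 1.5 times the value in the report. Without the filter on low counts 5 members were called in the BA tumours and 2 in day-30 A, where DESeq2 also called 2. The shares of all genes called under these settings are not given here, so these counts cannot be set against them. A term for Ddx3y left 3 called in the Apcfl/+ tumours and 0 for the difference between tumour effects, and in the BA tumours it gave -1.10 for Lyz1, -1.55 for Defa24, -1.00 for Ang4 and -1.83 for Itln1. In the BA tumours the Ddx3y term leaves tumour 1 alone to be set against WT, and the Gm13394 term leaves tumour 2 alone. A term for Gm13394 gave 0.68 for Reg4 in the BA tumours and -2.30 for its difference between tumour effects. Scaling by library totals gave 0.035 for Defa17, 0.033 for Ang4 and 0.19 for Reg4 on day 4. Ang4 was -0.86 between day-4 small intestine and day-30 colon alone. The causes were not tested. Terms for Ddx3y and Gm13394 could not be fitted in the day-30 comparisons, nor that for Gm13394 in the Apcfl/+ tumours. Every day-30 library exceeded 10 CPM of Ddx3y. For Gm13394, 0 of 4 day-30 WT libraries did so and all libraries of the other day-30 groups did, so it splits exactly by genotype.

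Leaving out 1 library at a time gave 0 to 1 called members on day 4, 5 to 6 in the Apcfl/+ tumours, 0 in the BA tumours, 3 to 4 in day-30 BA, 2 to 3 with antibiotics, 0 to 1 in day-30 A, where the lone call came without WT library 1, and 4 to 5 for the difference between tumour effects. The range was -2.49 to 2.34 for Reg4 in the BA tumours and -0.78 to 3.99 for its difference between tumour effects, both ends near or past 0 resting on WT proximal colon library 2. It was -0.72 to 0.49 for Itln1 in A, -0.90 to 0.54 for Itln1 and -0.13 to 0.41 for Reg4 in A with sulindac, -0.34 to 0.022 for Defa17 and -0.13 to 0.058 for Reg4 on day 4, -0.21 to 0.46 for Ang4 between antibiotics and none, and -0.76 to 0.63 for Itln1 and -0.46 to 0.030 for Reg4 between sulindac and none.

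Libraries with the same replicate number did not deviate together in every pair of any comparison (correlations -0.442 to 0.233), so the numbers were not taken to pair them. With the replicate number as a block, 1 member was called in the BA tumours, 2 in day-30 BA, where Ang4 lost its call (-3.02, adjusted p = 0.0568), 0 with antibiotics and 3 for the difference between tumour effects. The block gave 0.43 for Reg4 in the BA tumours, 0.025 for Ang4 in A with sulindac, 0.030 for Defa17 on day 4 and -0.48 for Itln1 between sulindac and none.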

Other observations

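Regulators of the secretory lineage rose in day-4 Apcfl/fl tissue in 6 of 13 cases, Sox9 by 2.48, although no member was called there. In the BA tumours none of the 13 was called by edgeR, and Sox9 had 0.81 (log2).

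Pancreatic acinar genes varied between small intestine libraries of the same group. Their summed level was 4.87 to 1082 CPM in WT small intestine, 101 to 838 CPM in the Apcfl/+ tumours and 7.36 to 1198 CPM in day-4 WT. Lyz1 in the same WT group spanned 2667 to 2989 CPM.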
